A study of Mus musculus with 6 samples.

Results

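The genes described here make, sense and move cholesterol and make fatty acids. They are 38 genes taken by name from a table of 43074 gene symbols: 7 early enzymes of the mevalonate pathway, 11 enzymes from squalene to cholesterol, 5 genes for the sterol-regulated transcription factors and their controllers, 2 sterol transporters, 8 genes of fatty acid synthesis and desaturation, and 5 genes of the liver X receptors and their targets. All 38 had counts, and all 38 were among the 17433 genes that passed the filter on low counts and were tested. The cells were wild-type C2C12, an immortalised mouse skeletal myoblast line that stops dividing and fuses into myotubes when serum is changed. One group was non-treated cells at day 0. The other groups had been kept for 4 days in differentiation medium with 5% horse serum, with the solvent DMSO in one group and with 4-phenylbutyric acid (4-PBA) at 1 mM in the other. 4-PBA is an aromatic short-chain acid used to ease protein folding stress and to inhibit histone deacetylases. Each group had 2 libraries from this 1 cell line. No label tells if the replicates came from separate cultures, so the p-values measure the spread between these libraries, which may be technical. Day 0 and day 4 differed in medium, in solvent and in time together, and the 4-PBA libraries analysed here are all from day 4.

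Cells make cholesterol from acetyl-CoA by way of mevalonate and squalene. SREBP-2, the product of Srebf2, and SREBP-1, the product of Srebf1, are transcription factors held in the endoplasmic reticulum with the escort protein Scap, and the Insig proteins keep that complex there when sterols are plentiful. When sterols fall, the complex moves to the Golgi, the factors are cut free, and genes of sterol and fatty acid synthesis are transcribed. Oxysterols act in the other direction on the liver X receptors (LXR), which switch on cholesterol efflux pumps, Mylip and Srebf1. Dividing myoblasts build new membrane, and myotube formation joins the membranes of many cells.

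Totals ran from 47908926 to 74697397 counts per library, and the 38 genes together took 0.734% to 0.819% of them. Counts of replicate libraries varied beyond sampling noise (chi-square over its degrees of freedom 3.98 for day 0, 7.15 for DMSO, 5.71 for 4-PBA). Levels are CPM, that is counts divided by the scaled size of the library. Differences are log2 fold changes, where 1 is a doubling, from a quasi-likelihood F test in edgeR adjusted by Benjamini-Hochberg over the tested genes. A gene was said to rise or fall where the adjusted p was under 0.05. With 2 libraries against 2, an exact permutation test cannot give a p below 0.333, so each call rests on the spread shared across genes. The 7 muscle markers summed to 1054 and 1061 CPM at day 0, rose to 6724 and 6963 CPM in DMSO, and stood at 6493 and 6597 CPM in 4-PBA. Of 7 adipocyte markers only Pparg passed the filter; Cfd had no counts, Fabp4 had none at day 4, and the summed level was 7.09 to 19.3 CPM. Hepatocyte markers (Alb, Apoa1 and Ttr) summed to at most 0.0483 CPM, and 4 macrophage markers to 1.56 to 6.11 CPM.

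Per length, the stearoyl-CoA desaturases stood far above the other genes. In CPM per kilobase of merged exons, Scd2 had a mean of 293 at day 0 and 381 with DMSO, and Scd1 had 120.2 and 296. The next with DMSO were 70.0 for Srebf2, 69.2 for the mevalonate pathway synthase Hmgcs1, 66.1 for the delta-6 desaturase Fads2 and 61.1 for Insig1. The lowest levels with DMSO were 0.188 for Nr1h3 (LXR alpha), 0.500 for Abcg1 and 0.798 for Abca1, while Nr1h2 (LXR beta) had 21.6. Scd1 and Scd2 share 4.56% and 3.97% of their 50-base stretches with other annotated genes, mainly each other.

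**Figure D1:**
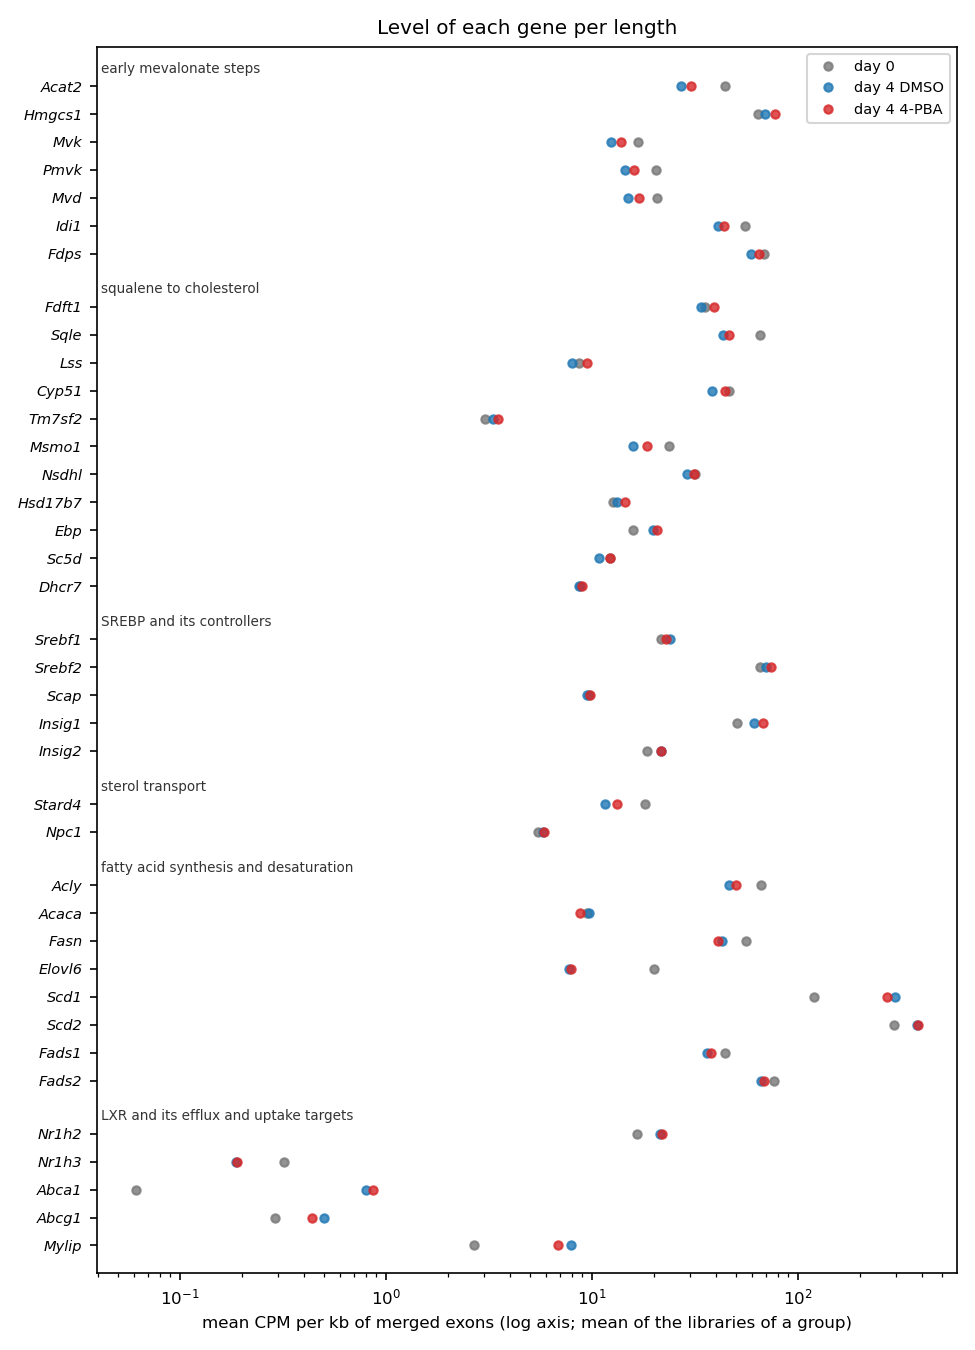
Mean level of each of the 38 genes in CPM per kilobase of merged exons, on a log axis, in the 3 groups of 2 libraries, grouped by role. Scd2 (381) and Scd1 (296) are highest with DMSO and Nr1h3 (0.188) is lowest.

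SREBPs bind the sterol regulatory element, usually next to sites for NF-Y and Sp1, and the promoters of these genes were read for such letters. RefSeq sequence of build GRCm38.p6 was at hand for 29 of the 38 genes, and the 250 bases before each annotated start were searched on both strands for TCACNCCAC (the core of the sterol element), CCAAT (the NF-Y box) and GGGCGG (the GC box bound by Sp1). None of these 3 strings can contain another. CCAAT was present for 20 of 29 genes (69.0%), against 37.5% of 27025 symbols in the same reference and 39.5% of its 17492 coding symbols, and for 14 of 15 sterol synthesis genes. The GC box was present for 23 of 29 (79.3%), against 35.4% of all symbols and 45.8% of coding ones, and also for 14 of 15 sterol synthesis genes. These are descriptions of sequence, and the genes were not matched to others for base composition. TCACNCCAC was present in 1 of 29 (3.45%), against 1.23% of all symbols. That gene was Hmgcs1, where it read TCACCCCAC with its first base 137 bases before the RefSeq start. The bases just after this start did not match the first part of any GENCODE M21 transcript of Hmgcs1. They did match for 33 of the 38 windows of the 29 genes, so this distance is uncertain. Below are the windows of the 3 genes with promoter sequence that had the smallest adjusted p between 4-PBA and DMSO. That of Hmgcs1 was added because it alone held an exact TCACNCCAC. Variants of the sterol element with other letters were not searched for, so its absence from the other genes is not shown. Capitals mark the 3 sets of letters on either strand, and each is read 5′ to 3′ along its gene. Msmo1 lies at chr8:64733579-64733828 (minus strand), Cyp51 at chr5:4104698-4104947 (minus strand), Acaca at chr11:84195188-84195437 (plus strand) and Hmgcs1 at chr13:119690101-119690350 (plus strand), all upstream of the annotated transcript.
Msmo1: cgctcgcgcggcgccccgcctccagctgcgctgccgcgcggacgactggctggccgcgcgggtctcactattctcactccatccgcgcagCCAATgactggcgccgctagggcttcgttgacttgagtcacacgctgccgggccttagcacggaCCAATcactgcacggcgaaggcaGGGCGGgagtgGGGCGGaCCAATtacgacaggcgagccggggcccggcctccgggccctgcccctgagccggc
Cyp51: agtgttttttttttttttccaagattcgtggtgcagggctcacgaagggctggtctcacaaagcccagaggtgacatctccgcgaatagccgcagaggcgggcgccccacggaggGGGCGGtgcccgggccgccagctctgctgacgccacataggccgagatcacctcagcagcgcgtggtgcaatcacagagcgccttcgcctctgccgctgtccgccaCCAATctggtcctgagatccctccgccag
Acaca: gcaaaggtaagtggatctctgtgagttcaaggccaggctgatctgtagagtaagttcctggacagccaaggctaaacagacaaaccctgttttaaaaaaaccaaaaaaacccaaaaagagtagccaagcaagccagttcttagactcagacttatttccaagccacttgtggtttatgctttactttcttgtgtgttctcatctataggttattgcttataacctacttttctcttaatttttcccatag
Hmgcs1: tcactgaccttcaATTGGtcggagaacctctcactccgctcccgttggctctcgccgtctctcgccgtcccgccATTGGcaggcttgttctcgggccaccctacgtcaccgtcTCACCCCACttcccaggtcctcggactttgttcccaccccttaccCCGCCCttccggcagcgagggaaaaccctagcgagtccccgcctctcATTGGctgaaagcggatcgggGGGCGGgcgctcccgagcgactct
Msmo1 holds 3 CCAAT and 2 GC boxes, Cyp51 holds 1 of each, and Hmgcs1 holds 3 and 2. The Acaca window, which lies before 1 of the starts in RefSeq, holds none of the 3. Sequence before any other Acaca start was not searched, so the gene as a whole cannot be said to lack them. A match is not a bound site, and binding was not measured.

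Day 4 in DMSO was compared with day 0, so medium, solvent and time changed together with differentiation. Of the 38 genes, 12 rose and 17 fell, and 9 did not pass the test. Most of the transcriptome moved between these groups, with 66.3% of all tested genes called, 33.8% higher and 32.6% lower. The total of 29 of 38 is thus near the background. The median log2 difference was -0.087 over the 38 genes and 0.023 over all tested genes. Both DMSO libraries lay above both day 0 libraries for 14 of the 38, against 42% of all tested genes, and below for 19, against 39.9% (81.9% without overlap in either direction). Of the 18 sterol synthesis genes, 2 rose and 11 fell. Of the SREBP genes 4 of 5 rose, as did 4 of 5 LXR genes, and the fatty acid genes split between the desaturases Scd1 and Scd2, which rose, and 5 genes that fell. In bulk RNA, fewer cells of a type and less RNA per cell cannot be told apart. The 5 proliferation markers (Mki67, Top2a, Cdk1, Ccnb1 and Mcm5) all fell as well, from a sum of 1495 and 1525 CPM at day 0 to 464 and 391 CPM with DMSO. Their part in the fall of the sterol genes was not tested.

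**Figure D2:**
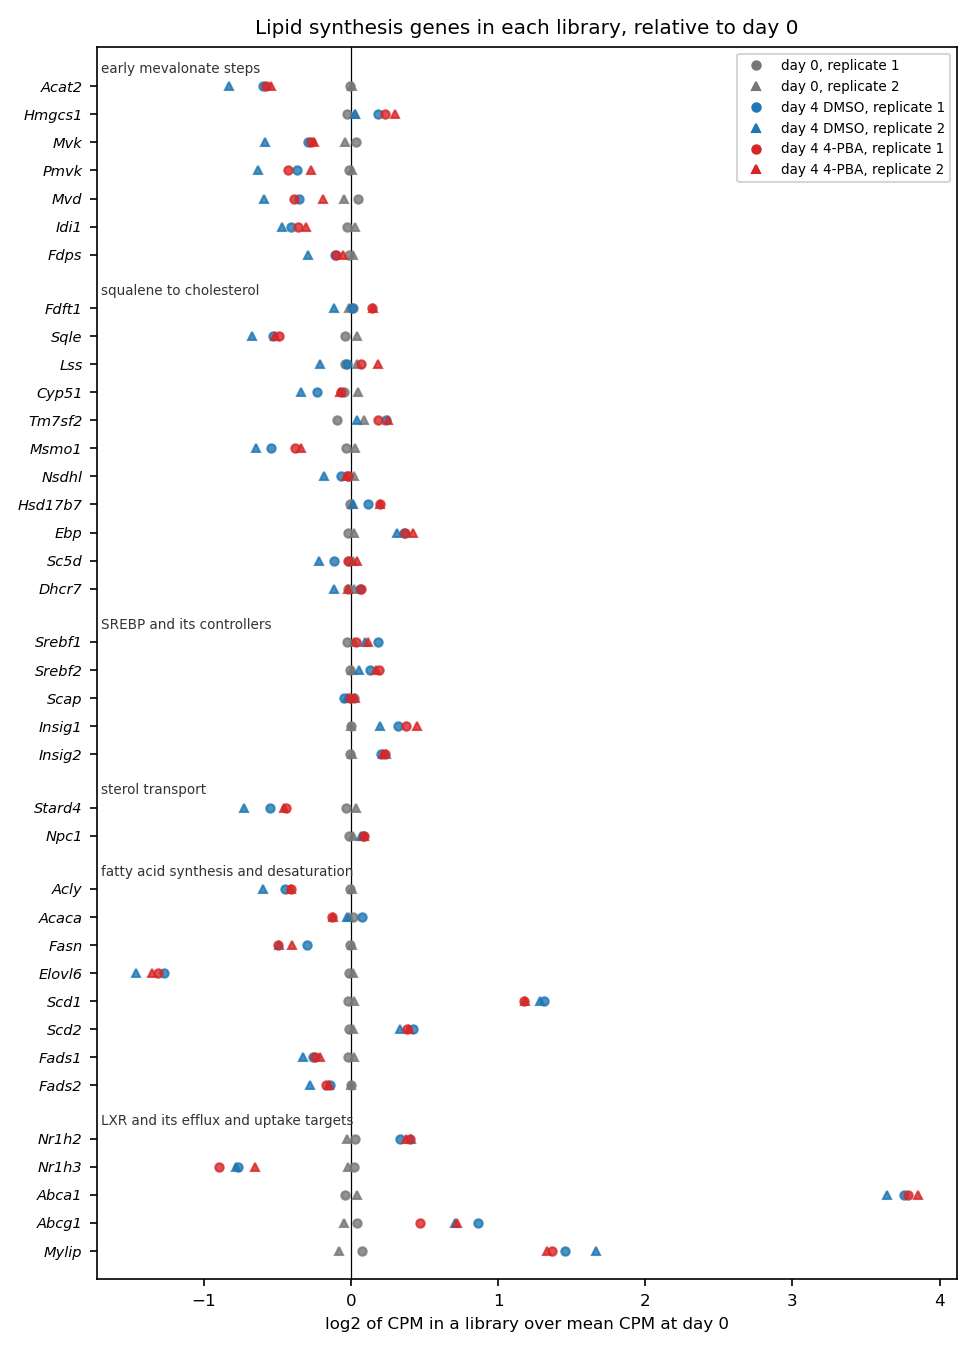
Level of each of the 38 genes in each of the 6 libraries, as log2 of its CPM relative to the mean of the day 0 libraries, grouped by role; points are single libraries. Most sterol synthesis genes lie left of 0 at day 4, and Scd1, Abca1 and Mylip lie far to the right.

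Of the 7 early genes, 6 fell. Acat2, the thiolase that joins acetyl-CoA units, had 113 and 114 CPM at day 0, 74.9 and 63.9 CPM in those kept in DMSO, and 76.2 and 77.8 CPM in those given 4-PBA. Both DMSO libraries lay below both day 0 libraries, a difference of -0.71 (SE 0.055, adjusted p = 6.74e-09). Of its 50-base stretches 39.1% also occur in other annotated genes, mainly Acat3, which had only 57 to 95 counts per library, so its own level is uncertain. Mvk, which phosphorylates mevalonate, and Pmvk, which phosphorylates the product of Mvk, differed by -0.43 and -0.50. Mvd, which makes the isoprenoid unit from the product of Pmvk, differed by -0.47, and Idi1, which isomerises that unit, by -0.44. Fdps, which joins isoprenoid units into farnesyl diphosphate, differed by -0.20. All 5 passed the test, with adjusted p up to 0.00522. Idi1 and Fdps share 17.7% and 26.2% of their 50-base stretches with other annotated genes, which makes their counts uncertain.

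Hmgcs1 went the other way, but not firmly. It had 289 and 301 CPM at day 0, 335 and 301 CPM in those kept in DMSO, and 346 and 363 CPM in those given 4-PBA. DMSO replicate 2 was only just above the higher day 0 library, and the difference was 0.11 (SE 0.043, adjusted p = 0.0410). The call was lost in 7 of 14 alternative analyses, among them those without day 0 replicate 1 (0.074, adjusted p = 0.238) and without DMSO replicate 1 (0.031, adjusted p = 0.424).

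Of the 11 genes from squalene to cholesterol, 5 fell and 1 rose. Sqle, the squalene epoxidase, which is a rate-limiting step, had 355 and 375 CPM at day 0, 253 and 229 CPM in those kept in DMSO, and 260.2 and 255 CPM in those given 4-PBA. The day 0 libraries lay above all 4 day 4 libraries, and with DMSO the difference was -0.60 (SE 0.039, adjusted p = 2.94e-11). Msmo1, the sterol C4-methyl oxidase, differed by -0.59 (adjusted p = 5.27e-16) and Sc5d, the sterol C5-desaturase, by -0.17 (adjusted p = 0.00229). Cyp51, the lanosterol 14-demethylase, differed by -0.29 (adjusted p = 2.95e-08). Nsdhl, the sterol C4-dehydrogenase, differed by -0.13 (adjusted p = 0.00670), and this call was lost without day 0 replicate 2 (adjusted p = 0.105) and without DMSO replicate 2 (adjusted p = 0.150). The gene that rose was Ebp, the sterol isomerase, with 36.1 and 37.0 CPM at day 0, 46.8 and 45.3 CPM in those kept in DMSO, and 47.1 and 48.8 CPM in those given 4-PBA. Its day 4 libraries all exceeded its day 0 libraries, with a difference between DMSO and day 0 of 0.33 (SE 0.050, adjusted p = 3.94e-07). Fdft1, the squalene synthase, had -0.056, and Lss, which closes the sterol ring, had -0.12. The reductases Hsd17b7, Tm7sf2 and Dhcr7 had 0.064, 0.13 and -0.027, and none of these 5 genes passed the test. With all libraries kept, Lss was called lower with library size only, with no filter beyond 1 count and with limma-voom. Fdft1 was called lower with library size only. Calls of 4 of these 5 appeared when 1 DMSO library was left out: Fdft1 (-0.12) and Lss (-0.21) as lower without replicate 1, and Hsd17b7 (0.11) and Tm7sf2 (0.23) as higher without replicate 2.

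Of the 5 genes of the SREBP control loop, 4 rose by small amounts and Scap did not pass the test. Insig1, itself a target of SREBP, had 158 and 158 CPM at day 0, 197 and 181 CPM in those kept in DMSO, and 205 and 216 CPM in those given 4-PBA. The groups did not overlap, and with DMSO it was higher than at day 0 by 0.26 (SE 0.037, adjusted p = 2.11e-07). Insig2 was higher by 0.22 (adjusted p = 1.55e-05), Srebf1 by 0.14 (adjusted p = 0.00181) and Srebf2 by 0.093 (adjusted p = 0.00607). The last 2 calls were lost without day 0 replicate 1, with adjusted p of 0.0544 and 0.0808, and that of Srebf2 also without DMSO replicate 1 (0.059, adjusted p = 0.0689). Scap, the escort, had 73.3 and 71.5 CPM at day 0, 69.9 and 71.1 CPM in those kept in DMSO, and 72.0 and 73.8 CPM in those given 4-PBA, a difference of -0.037 (adjusted p = 0.447) that did not pass.

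Of the 2 sterol transporters, Stard4 fell. Stard4, which carries cholesterol between membranes in the cytosol, had 98.9 and 103 CPM at day 0, 69.0 and 61.1 CPM in those kept in DMSO, and 74.4 and 73.8 CPM in those given 4-PBA. Every day 4 library was below the day 0 libraries, and with DMSO the difference was -0.64 (SE 0.047, adjusted p = 4.30e-13). Npc1, which exports cholesterol from lysosomes, had 61.9 and 62.8 CPM at day 0, 66.1 and 65.2 CPM in those kept in DMSO, and 66.2 and 66.2 CPM in those given 4-PBA, and its difference of 0.074 (adjusted p = 0.132) did not pass.

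The 8 fatty acid genes held both large rises and large falls. Scd1, which puts the first double bond into saturated fatty acyl chains, had 579 and 597 CPM at day 0, 1461 and 1436 CPM in those kept in DMSO, and 1329 and 1338 CPM in those given 4-PBA. All 4 day 4 libraries were far above both day 0 libraries, and with DMSO the level was 2.46-fold that of day 0, a log2 difference of 1.30 (SE 0.028, adjusted p = 5.71e-30). Its paralog Scd2 rose by 0.38 (adjusted p = 2.71e-14). Elovl6, which lengthens palmitate to the stearate that desaturases use, moved the other way with 127 and 130.0 CPM at day 0, 53.2 and 46.8 CPM in those kept in DMSO, and 51.9 and 50.4 CPM in those given 4-PBA, a difference of -1.37 (SE 0.048, adjusted p = 5.25e-21). Acly, which makes cytosolic acetyl-CoA from citrate, differed by -0.52, and Fasn, the fatty acid synthase, by -0.39. The desaturases of polyunsaturated chains, Fads1 and Fads2, differed by -0.29 and -0.21. These 4 passed the test, with adjusted p up to 0.00274. Acaca, which makes malonyl-CoA, had 0.024 (adjusted p = 0.559). The ratio of Scd1 to Scd2 per kilobase was 0.408 and 0.412 at day 0, 0.763 and 0.794 in DMSO, and 0.712 and 0.709 in 4-PBA, so no group overlapped another.

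Among the LXR genes 4 of 5 rose. Abca1, the pump that loads cholesterol onto apolipoproteins, had 0.617 and 0.655 CPM at day 0, 8.61 and 7.94 CPM in those kept in DMSO, and 8.79 and 9.20 CPM in those given 4-PBA. It rested on 30 and 46 counts at day 0, and with DMSO it was 12.9-fold higher, a log2 difference of 3.69 (SE 0.16, adjusted p = 1.65e-20). This was the largest difference among the 38 genes. Mylip, a ubiquitin ligase that removes lipoprotein receptors, rose by 1.57 (SE 0.082, adjusted p = 2.83e-18), the efflux pump Abcg1 by 0.79 (SE 0.17, adjusted p = 1.51e-04), and Nr1h2 (LXR beta) by 0.37 (adjusted p = 3.39e-09). Nr1h3 had 0.823 and 0.798 CPM at day 0, 0.475 and 0.472 CPM in those kept in DMSO, and 0.435 and 0.515 CPM in those given 4-PBA, or 27 to 56 counts per library, and its difference of -0.77 (adjusted p = 0.0623) did not pass.

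**Figure D3:**
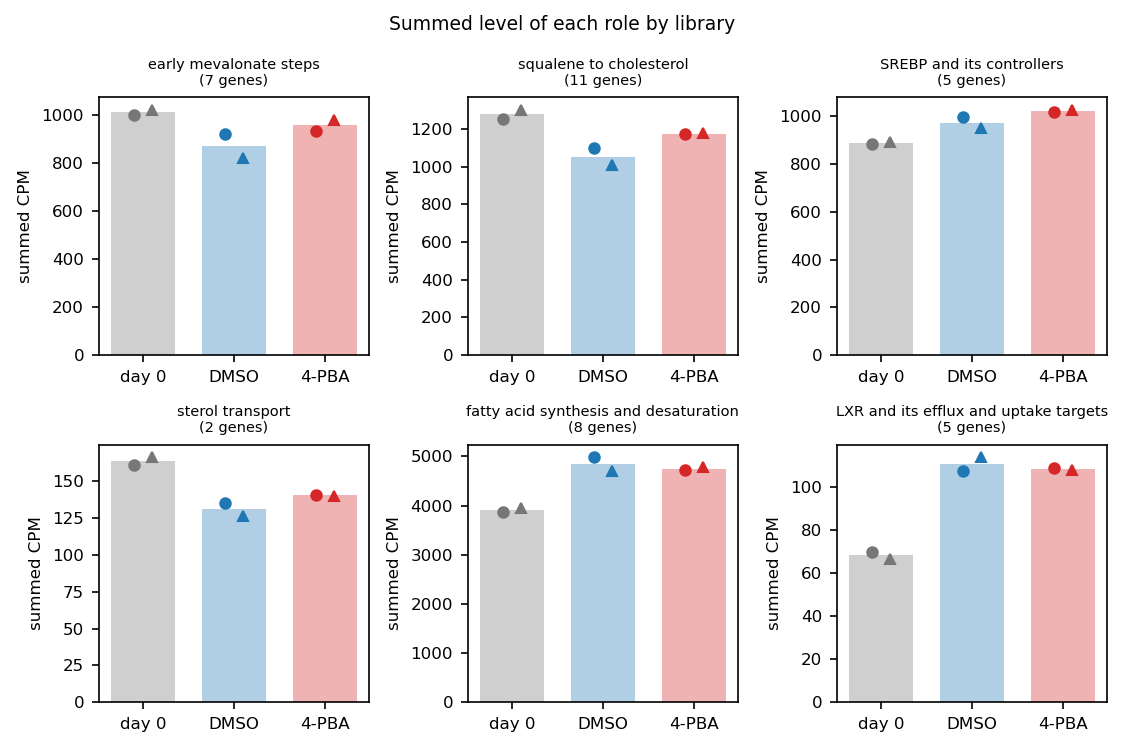
Summed CPM of the genes of each role in each library (circles are replicate 1, triangles replicate 2) with the mean of each group as a bar from 0. The squalene to cholesterol sum is 1277 CPM at day 0, 1052 CPM with DMSO and 1174 CPM with 4-PBA, and the fatty acid sum is 3910, 4849 and 4751 CPM.

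Summed by role, the early genes had 1010 ± 15.7 CPM at day 0, 868 ± 70.0 CPM in DMSO and 955 ± 30.2 CPM in 4-PBA (SD, n = 2). The genes from squalene to cholesterol had 1277 ± 35.5, 1052 ± 64.6 and 1174 ± 4.84 CPM. Both sums were lowest with DMSO, with the 4-PBA libraries between the DMSO and the day 0 libraries. The fatty acid sum, most of it from Scd1 and Scd2, had 3910 ± 50.3, 4849 ± 197 and 4751 ± 48.8 CPM, where the 4-PBA and DMSO libraries overlapped.

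Day 4 in 4-PBA against day 4 in DMSO asks what the compound changed during differentiation. Of the 18 sterol synthesis genes, 5 rose with 4-PBA, by 12.9% to 18.5%, and 13 did not pass, while 2 of 8 fatty acid genes fell. Of the 38 genes, 7 rose (Fdft1, Lss, Cyp51, Msmo1, Sc5d, Insig1 and Stard4), 2 fell (Acaca and Scd1) and 29 did not pass. Among all tested genes 4.9% were called, 2.13% higher and 2.78% lower. The median log2 difference was 0.093 over the 38 genes and 0.0021 over all tested genes. Both 4-PBA libraries lay above both DMSO libraries for 22 of the 38, against 23% of all tested genes, and below for 3, against 22.5% (45.5% without overlap in either direction). The fitted value was positive for all 18 sterol synthesis genes, with a median of 0.15, and for 16 of 18 without DMSO replicate 2, with a median of 0.056. These genes are known to be regulated together and were measured in the same 4 libraries, so their shared sign is not 18 separate observations.

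**Figure D4:**
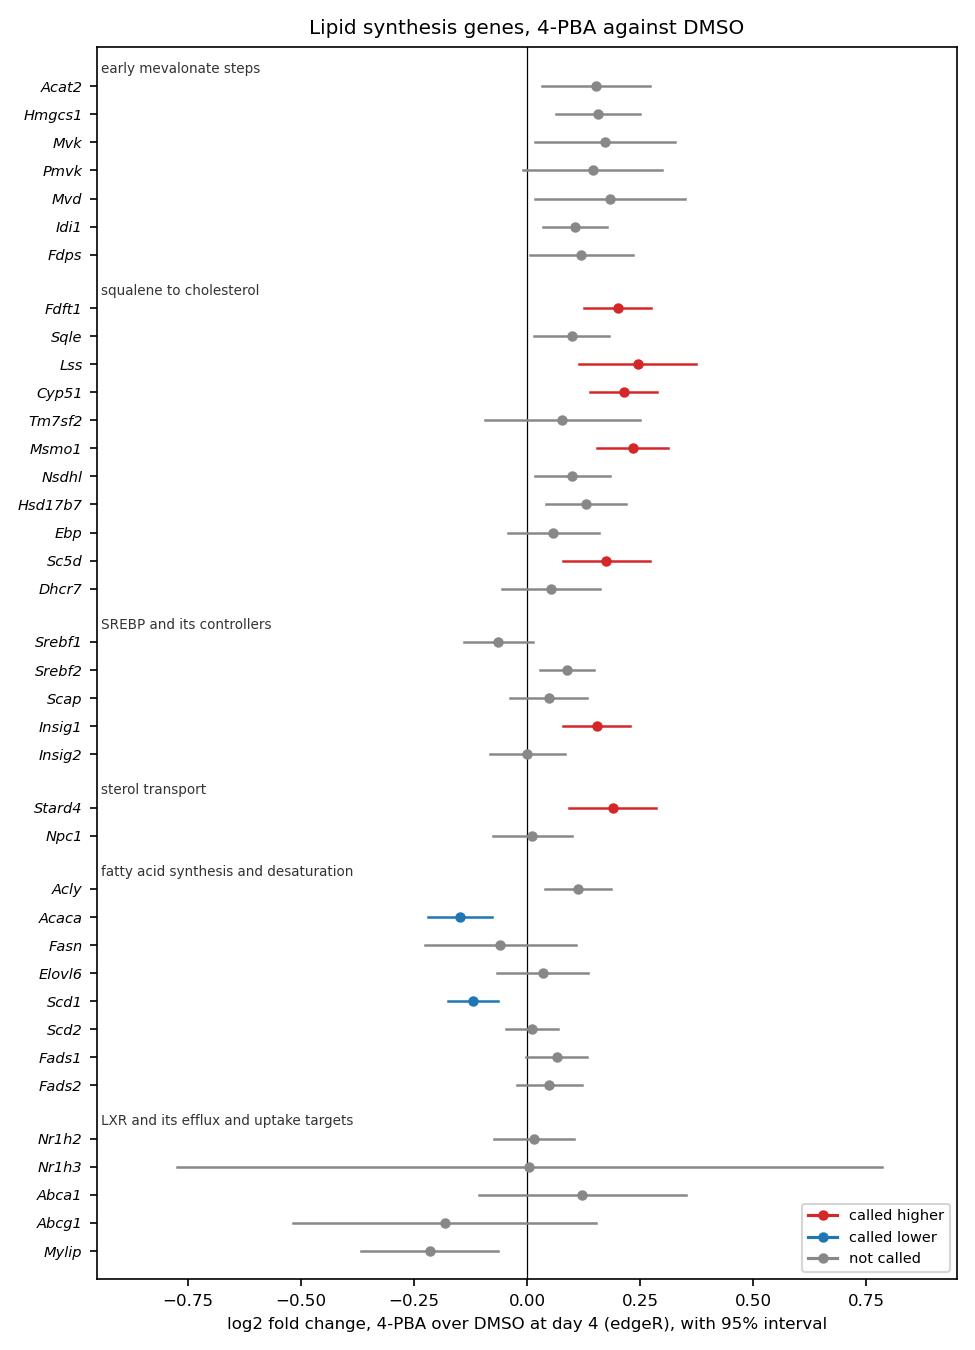
Fitted log2 difference between 4-PBA and DMSO at day 4 for each of the 38 genes, with its 95% interval, unadjusted; red (higher) and blue (lower) points passed the adjusted test and grey ones did not. The values run from -0.22 (Mylip) to 0.24 (Lss), and all 18 sterol synthesis genes lie right of 0.

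The 5 sterol synthesis genes that rose were among the 11 from squalene to cholesterol, and none of the 7 early genes passed. Some early genes passed in alternative analyses, given below, and the difference between these roles was not tested. Msmo1 had 112 and 116 CPM in 4-PBA and 100.4 and 93.7 CPM in DMSO, against 143 and 149.5 CPM at day 0. The 4-PBA libraries were above the DMSO libraries and below those of day 0, with a difference from DMSO of 0.23 (SE 0.038, adjusted p = 1.25e-04), or 17.5%. For Cyp51 the libraries had 199 and 212 CPM at day 0, 175 and 163 CPM in those kept in DMSO, and 196 and 195 CPM in those given 4-PBA. Its 4-PBA libraries were above those of DMSO and below those of day 0, by 0.21 (SE 0.036, adjusted p = 2.95e-04) over DMSO. For Fdft1, which makes squalene, they had 151 and 148 CPM at day 0, 150.1 and 138 CPM in those kept in DMSO, and 165 and 166 CPM in those given 4-PBA. Here the 4-PBA libraries were the highest of the 6, by 0.20 (SE 0.036, adjusted p = 5.39e-04) over DMSO. These 3 genes were called in all 14 alternative analyses at this threshold. No strand setting is given for the counting, and both Fdft1 and Cyp51 have exons on the strand opposite another gene: Ctsb, beside Fdft1, had -0.029 (adjusted p = 0.683) and Akap9, beside Cyp51, had -0.057 (adjusted p = 0.520) in the same comparison. Fdft1 also shares 9.38% of its 50-base stretches with other annotated genes.

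Lss had 90.7 and 96.1 CPM at day 0, 91.9 and 80.6 CPM in those kept in DMSO, and 98.0 and 106 CPM in those given 4-PBA. The 4-PBA libraries were above the DMSO libraries, by 0.24 (SE 0.059, adjusted p = 0.0335), the largest value of the 38. Without 4-PBA replicate 2 it was 0.19 (adjusted p = 0.182). Sc5d had 58.7 and 60.1 CPM at day 0, 54.9 and 51.1 CPM in those kept in DMSO, and 58.6 and 61.0 CPM in those given 4-PBA, without overlap of 4-PBA and DMSO and with a difference of 0.18 (SE 0.047, adjusted p = 0.0215). Its call was lost without DMSO replicate 2 (adjusted p = 0.176), with either 4-PBA library left out (0.0715 for replicate 1, 0.280 for replicate 2).

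The other 13 sterol synthesis genes did not pass. Among the early enzymes Hmgcs1 had 0.16 (adjusted p = 0.0515) with a 95% interval of 0.065 to 0.25. Mvd had 0.18, Fdps 0.12, Acat2 0.15, Mvk 0.17, Pmvk 0.15 and Idi1 0.11. Hmgcs1 was called higher with library size only, with no filter beyond 1 count, with the DESeq2 test and with limma-voom. It was also called in the fit to just the 4 libraries compared. Idi1 was called with library size only, and Acat2, Mvk, Mvd and Fdps with no filter beyond 1 count. Further down, Sqle had 0.098 (adjusted p = 0.193), Hsd17b7 0.13 (adjusted p = 0.0786) and Nsdhl 0.10 (adjusted p = 0.182), and Ebp, Tm7sf2 and Dhcr7 had 0.058, 0.078 and 0.054. The median difference was 0.15 for the early genes and 0.13 for the later ones, and their median SE was 0.056 against 0.043.

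The DMSO replicates themselves differed for these genes. Replicate 1 was above replicate 2 for 34 of the 38, by a median log2 value of 0.11, and for all 18 sterol synthesis and all 8 fatty acid genes, against 51.5% of all tested genes with a median of 0.0047. Without replicate 2, the sterol synthesis genes had a median difference between 4-PBA and DMSO of 0.056, with 16 of 18 positive and 4 called; Tm7sf2 and Dhcr7 were then at -0.020 and -0.034. Without replicate 1 the median was 0.23, with 18 of 18 positive and 15 called. Of the 38 genes, 4 rose without replicate 2, where 375 of 18266 tested genes did (5.24% called in either direction), and 20 rose without replicate 1, where 634 of 18338 did (6.51% called in either direction). The 5 proliferation markers moved alongside: all 5 were higher in DMSO replicate 1 (sum 464 CPM) than in replicate 2 (391 CPM). In all 5 the 4-PBA libraries (490 and 500 CPM) were above both DMSO libraries, against 23% of all tested genes. None of the 5 markers passed the test. Their part in the sterol result was not tested. Of the 7 muscle markers, 3 fell with 4-PBA by small amounts: Des (-7.22%), Acta1 (-6.30%) and Mymk (-11.0%). Of all tested genes 2.78% were called lower. Myod1 (log2 difference -0.045), Myog (0.0052), Myh3 (0.018) and Ckm (-0.17) did not pass.

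**Figure D5:**
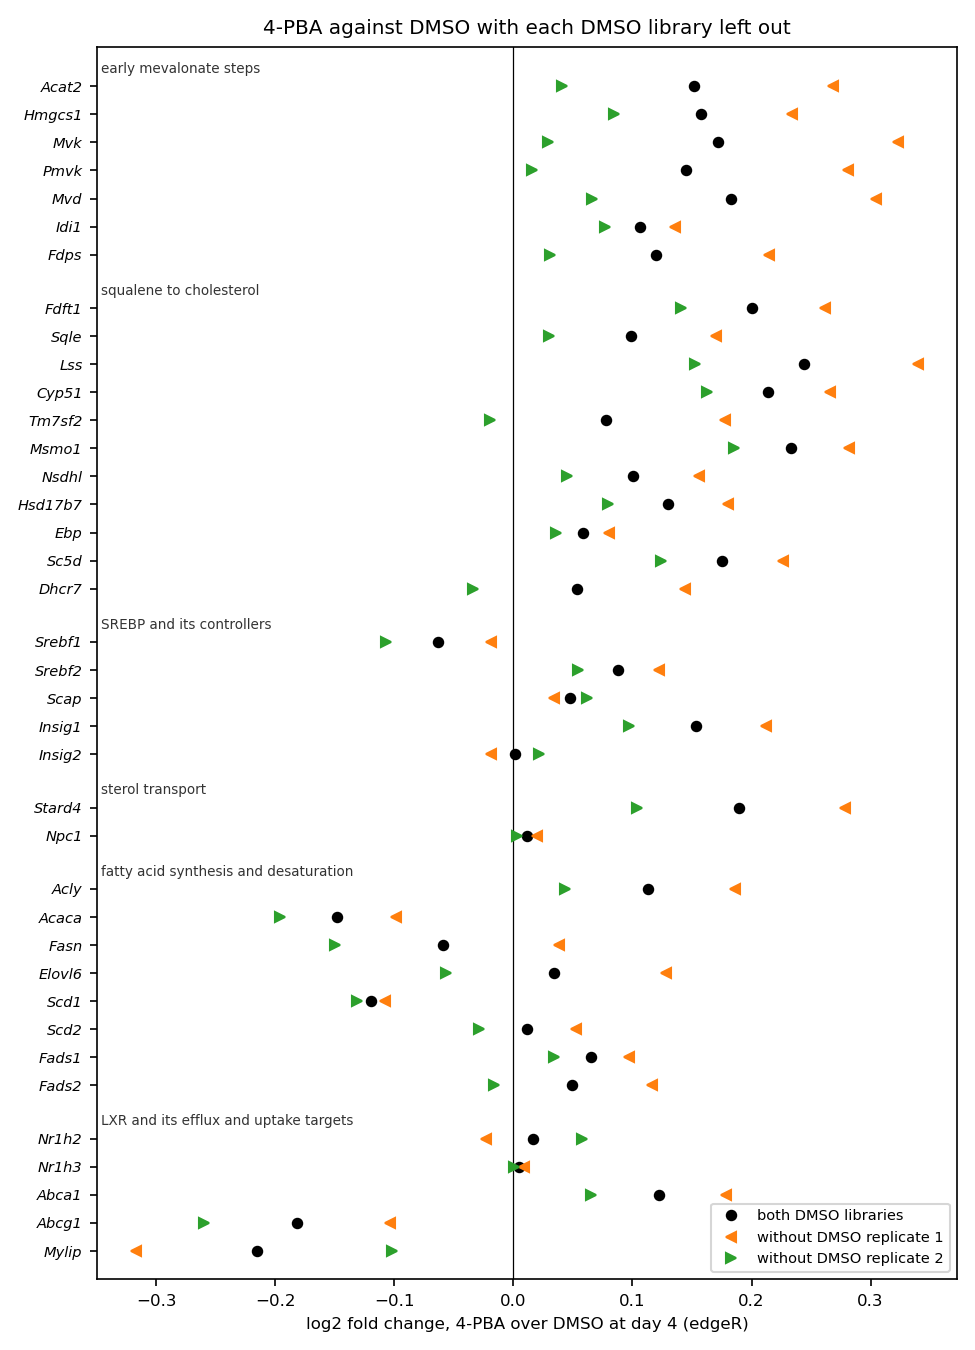
Fitted log2 difference between 4-PBA and DMSO for each of the 38 genes with all libraries, without DMSO replicate 1 and without DMSO replicate 2. The sterol synthesis genes have a median of 0.15 with all libraries, 0.23 without replicate 1 and 0.056 without replicate 2.

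In the control loop, Insig1 rose with 4-PBA by 0.15 (SE 0.036, adjusted p = 0.00881), in addition to its rise between day 0 and DMSO. Its library values are given above and did not overlap. The call was lost without DMSO replicate 2 (0.097, adjusted p = 0.0991) and without 4-PBA replicate 2 (adjusted p = 0.267). Srebf2 had 0.088 (adjusted p = 0.0809), Scap 0.048 (adjusted p = 0.640), Srebf1 -0.063 (adjusted p = 0.423) and Insig2 0.0009 (adjusted p = 0.996), and none of these passed. Srebf1 has exons opposite those of Rai1, which fell by 0.15 (adjusted p = 0.00963), so its count is uncertain. Stard4, also a target of SREBP-2, rose by 0.19 (SE 0.047, adjusted p = 0.0135), which left it below day 0. Without DMSO replicate 2 it had 0.10 (adjusted p = 0.212), and the call was also lost without either 4-PBA library (adjusted p = 0.142 and 0.103). Npc1 had 0.012 (adjusted p = 0.936).

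Of the 8 fatty acid genes, 2 fell with 4-PBA and none rose. Acaca had 164 and 161 CPM at day 0, 171 and 159 CPM in those kept in DMSO, and 149 and 149 CPM in those given 4-PBA. The 4-PBA libraries lay below all others, with a difference from DMSO of -0.15 (SE 0.035, adjusted p = 0.00800). The call was lost without DMSO replicate 1 (adjusted p = 0.0848), with either 4-PBA library left out (0.125 for replicate 1, 0.100 for replicate 2), and 30.4% of its 50-base stretches also occur in another annotated gene. Scd1 with 4-PBA was below both DMSO libraries, with a difference of -0.12 (SE 0.027, adjusted p = 0.00536), or -7.97%, while it stayed 2.27-fold above day 0. Its call was lost without 4-PBA replicate 1 (adjusted p = 0.174) or replicate 2 (0.132). Acly was on the side of the sterol genes with 0.11 (adjusted p = 0.0668). Fasn had -0.059 (adjusted p = 0.769), but it depended on the DMSO library: it had -0.15 (adjusted p = 1.99e-04) without replicate 2 and had 0.038 without replicate 1. Scd2, Elovl6, Fads1 and Fads2 had 0.011, 0.034, 0.065 and 0.049 and did not pass.

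None of the 5 LXR genes passed the test between 4-PBA and DMSO. Mylip had the lowest value of the 38, with 22.4 and 21.9 CPM in 4-PBA and 23.8 and 27.6 CPM in DMSO, a difference of -0.22 (adjusted p = 0.0919) and a 95% interval of -0.37 to -0.064. Abca1 had 0.12 with an interval of -0.11 to 0.35, and Abcg1 -0.18 with -0.52 to 0.15, so a change of the size seen for the sterol genes could not be told from none at these levels. Nr1h2 had 0.016 and Nr1h3 0.0047.

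Between 4-PBA at day 4 and day 0, 14 of the 38 genes were higher and 14 lower, against 33.2% and 32.4% of all tested genes (65.6% called in all). This comparison shares its day 0 libraries with that of DMSO and its 4-PBA libraries with the one before, so its values (17 genes with all libraries above day 0 and 17 below, against 41.7% and 40.1% of all tested genes, and 81.8% in either direction) are set beside theirs and not read as separate support. Of the 18 sterol synthesis genes, 5 were higher and 7 lower, where the DMSO comparison had 2 and 11. Hmgcs1 had 0.26 against 0.11 with DMSO, Fdft1 0.14 against -0.056, Ebp 0.39 against 0.33, Tm7sf2 0.21 against 0.13 and Hsd17b7 0.19 against 0.064; these 5 were above day 0 with 4-PBA. The call of Tm7sf2 was lost without day 0 replicate 1 (0.13, adjusted p = 0.311) and without 4-PBA replicate 2 (adjusted p = 0.169), and its exons overlap those of Vps51 on the same strand. The call of Mvd (-0.28, lower) was lost without 4-PBA replicate 1 (adjusted p = 0.0658) and that of Abcg1 (0.61, higher) without 4-PBA replicate 2 (adjusted p = 0.0583). Msmo1 (-0.36 against -0.59), Sqle (-0.50 against -0.60) and Acat2 (-0.56 against -0.71) stayed below day 0 in both. All 8 fatty acid genes were called, Scd1 and Scd2 higher and 6 lower, now with Acaca at -0.12 (adjusted p = 0.00243).

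A wider list of 58 genes of sterol handling, SREBP processing and lipid synthesis was read in the same fit, of which 55 were tested. Between day 0 and DMSO at day 4, 22 rose and 21 fell, with a median of 0.032, again near the background of 66.3%. Of the called genes that reached 5 CPM at day 0 or in DMSO, the largest rises were in Ch25h, which makes the oxysterol 25-hydroxycholesterol, with 1.01 and 0.940 CPM at day 0 and 6.91 and 7.20 CPM with DMSO (2.86, adjusted p = 4.89e-17), in the sterol transfer gene Gramd1b (1.25) and in the transporter Abca5 (1.12). By the same limit, the largest falls were in the lipoprotein receptor Lrp8 (-2.57), in Tmem97 (-1.11) and in Erlin1 (-0.85). Between 4-PBA and DMSO 3 rose and 2 fell, or 9.09% of the 55 against 4.9% of all tested genes (2.13% higher and 2.78% lower), with a median of 0.028. Those that rose were Aacs, which makes acetoacetyl-CoA from ketone bodies (0.18, adjusted p = 0.00601), the sterol transfer gene Gramd1a (0.18, adjusted p = 0.0256) and the long-chain acyl-CoA synthetase Acsl3 (0.11, adjusted p = 0.0289). Ch25h fell, with 5.03 and 4.35 CPM (-0.59, adjusted p = 0.00570), as did Lrp1, an endocytic receptor (-0.13, adjusted p = 0.00344). None of the 8 genes of SREBP processing and reductase turnover passed between 4-PBA and DMSO.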

How the data were processed

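RNA-seq libraries of C2C12 cells were analysed from 1 table. The authors deposited raw counts per gene symbol, 1 column per library, per the labels and the file headers. Libraries came from DNase-treated total RNA with a directional kit, per the labels' protocols, and the build was GRCm39, per the submitters' processing notes. The aligner, counting tool, annotation and strand setting are not given in the sources used here.

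Counts were fitted with edgeR 4.0.16 in R 4.3.3 (filterByExpr, TMM, robust glmQLFit, 1 mean per group over all 6 libraries, all of batch 1). Genes with a Benjamini-Hochberg adjusted p under 0.05 were called. SE is the log2 fold change divided by the square root of F. The common biological coefficient of variation was 3.74%. CPM are TMM-scaled. Exon lengths, overlaps and shared 50-base stretches came from GENCODE M21 (GRCm38), which named 36556 of the symbols, so counted genes have no coordinates. Scripts were tested on simulated data. Figures used Python 3.11.15 and matplotlib 3.10.9.

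The 38 genes and the other lists were chosen with earlier results of these data known. Library values are given for each gene called between 4-PBA and DMSO. They are also given for the largest rise and fall of each role between day 0 and DMSO. Of the other lipid genes, the named ones are the 5 with the smallest adjusted p between 4-PBA and DMSO. The 3 largest rises and falls between day 0 and DMSO at 5 CPM or more are named too. Alternatives were other scalings, filters, tests and thresholds, DESeq2 1.42.0, limma-voom, a fit to just the 4 libraries of a comparison, replicate as a block, and leaving out each library.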

Additional observations from a re-analysis of the deposited data

How the results depend on the processing

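With only 2 libraries a group, 6 of the 9 calls between 4-PBA and DMSO were lost on leaving out at least 1 library, and depth limited Nr1h3 (27 to 56 counts per library) and Abca1 at day 0 (30 and 46 counts). Between DMSO and day 0, requiring a 1.5-fold change left 6099 genes called, with 4 of the 38 higher and 5 lower; the median of the 38 was -0.038 under the stricter filter and -0.15 to -0.039 on leaving out 1 library. Between 4-PBA and DMSO, 424 genes were called at an adjusted p under 0.01 and 59 at 1.5-fold, and 295 to 1194 on leaving out 1 library, against 855. Members called higher there numbered 11 with library size only, 13 with no filter, 4 at 0.01, 0 at 1.5-fold and 3 to 20 on leaving out 1 library, against 7; members called lower numbered 0 at 1.5-fold and 0 to 3 on leaving out 1 library, against 2. The median of the 38 ran from 0.035 to 0.15. Between 4-PBA and day 0, a 1.5-fold change left 5972 genes, with 4 of the 38 higher and 1 lower. The cause was not tested, beyond the stricter thresholds themselves.

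The sign of some small differences turned. Between DMSO and day 0, Acaca had -0.0038 with library size only, and leaving out 1 library gave -0.12 to 0.0046 for Fdft1, -0.12 to 0.060 for Dhcr7 and -0.024 to 0.073 for Acaca. Between 4-PBA and DMSO, Insig2 had -0.0013 with no filter and -0.0015 with the stricter one. Leaving out 1 library gave -0.020 to 0.18 for Tm7sf2, -0.034 to 0.14 for Dhcr7, -0.019 to 0.022 for Insig2, -0.15 to 0.038 for Fasn, -0.057 to 0.13 for Elovl6, -0.029 to 0.052 for Scd2, -0.016 to 0.12 for Fads2, -0.023 to 0.058 for Nr1h2 and -0.12 to 0.12 for Nr1h3. Between 4-PBA and day 0, Sc5d had -0.010 and Scap -0.0081 with library size only, and leaving out 1 library gave -0.020 to 0.042 for Sc5d, -0.0066 to 0.033 for Scap and -0.013 to 0.071 for Dhcr7.

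The labels give replicate numbers 1 and 2 in each group, with no shared culture named, and same-numbered libraries did not deviate together (correlations of 0.046, -0.085 and -0.088). With the replicate number as a block, 768 genes were called between 4-PBA and DMSO, with 6 of the 38 higher and 2 lower; Lss was the gene that lost its call (adjusted p = 0.0654).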
